A study of Drosophila melanogaster with 3 samples.

Results

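The regions described here are 396 peaks of the CG6163-eGFP fusion protein whose summits lay inside an annotated exon and more than 500 bp from any annotated transcript start. They came from the conservative peak list of the series, which was filtered by the irreproducible discovery rate (IDR), a measure of how well peak ranks repeat between sets. Of its 10894 peaks, 10892 had summits on the arms 2L, 2R, 3L and 3R or on chromosomes X and 4, and the exon peaks were 3.64% of these (95% exact binomial interval 3.292 to 4.004, counting error only). By the part of the transcript at the summit, 126 lay in a 5' UTR, 86 in a 3' UTR, 83 in a coding exon and 101 in an exon of a noncoding RNA gene. Where transcripts disagreed, the class was taken in that order. Chromatin immunoprecipitation followed by sequencing was done with an anti-GFP antibody on *Drosophila melanogaster* prepupae of the strain CG6163-GFP, which carries an insertion in CG6163 that makes the fusion. The labels give 3 libraries, each a biological replicate, and no other group. All list the same donor strain, whole animals of unstated age within the prepupal stage were used, and chromatin was sonicated to 200 to 800 bp, so cell types are mixed in every value. A control experiment is named in the labels and was not used here.

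A transcription factor is usually mapped to promoters and to enhancers, which in flies often lie in introns and between genes. Exons carry a further load: coding exons are constrained by the amino acid code and are richer in G and C than introns, while UTRs carry signals that control translation, stability and localisation of the messenger RNA. An exon can also lie near another start of its own gene, and exons of long noncoding RNAs (lncRNAs) have no reading frame. A prepupa is the stage between larva and pupa, when the steroid hormone ecdysone drives metamorphosis.

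Short sequences near the summits, 3 from each exon class, show words that are counted below. Each holds 30 bases of the forward strand of dm6, from RefSeq, with the counted word in capitals on whichever strand it occurred. The examples are among the strongest peaks with the word within 50 bp of the summit that were found in 2 or more replicates. Coding exons are shown for the repeated CAG word GCAGCA (reverse TGCTGC). They come from the kinase gene *sgg* (chrX:2659583-2659612), the signalling suppressor gene *Socs36E* (chr2L:18141839-18141868) and *HisRS* (chrX:18517574-18517603), which encodes histidyl-tRNA synthetase.
sgg: ttccagtgcatcGCAGCAGCAactgcagtt
Socs36E: TGCTGCTGCTGCTGCTGCtggtggtggtgg
HisRS: gtggcgctgtagTGCTGCgtttcagtgtgc
The 5' UTRs are shown for the GAGA word GAGAGA (reverse TCTCTC), the kind of sequence bound by the GAGA factor. They come from the phosphatase gene *Pp2C1* (chrX:4686368-4686397), *melt* (chr3L:7135108-7135137) and the Mediator subunit gene *skd* (chr3L:21025231-21025260).
Pp2C1: ctcaggccttTCTCTCTCccgctctcgctc
melt: gagcgatgtattGAGAGAgcggcttagctc
skd: acacagcaatacTCTCTCacacacacacac
Noncoding exons and 3' UTRs are shown for the run AAAAAA (reverse TTTTTT). The noncoding examples lie in lncRNA:CR43334 (chr3L:636591-636620 and chr3L:634848-634877) and lncRNA:CR44854 (chr2L:14557937-14557966). The 3' UTR examples lie in *APC7* (chrX:6599496-6599525), *CG7872* (chrX:15579770-15579799) and *tey* (chr3L:19650800-19650829).
lncRNA:CR43334, first site: tgtataggtataTTTTTTgatatcctttag
lncRNA:CR43334, second site: tcgaagatgaaaTTTTTTTcaaattaattt
lncRNA:CR44854: cgcagctggacTTTTTTTcaagtttattcg
APC7: taaaagtgaatgTTTTTTTTTTgttattaa
CG7872: tggctggtcacAAAAAAAgcacgccacatt
tey: TTTTTTTTTTTTTTTTTTggtgggcgtggc

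Read totals were not used here, so the size of each list stands for depth. The replicates' own thresholded lists held 7449, 7920 and 5844 peaks for replicates 1, 2 and 3. Of these, 245, 268 and 186 met the same exon rule, a mean of 233 ± 42.3 (SD, n = 3) or 3.29% ± 0.101 of each list. Replicate 3 was the smallest list and held the fewest exon peaks, but at a like share. Its make-up by class differed. In replicates 1, 2 and 3, 5' UTR peaks were 1.09%, 1.12% and 0.736% of the list, and coding peaks 0.322%, 0.366% and 0.565%. Signal below is the authors' own value per peak, read within a list and not between lists. Every test over the 3 replicates was an exact two-sided sign-flip test, whose smallest possible p is 0.25, so none could pass 0.05.

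Exons away from starts were not alike in how densely they held peaks: 3' UTRs and above all coding exons held few per length, while 5' UTRs and noncoding exons were above or below introns by the distance from a start. In the conservative list the density was 121 summits per Mb in 5' UTRs, 92.1 in noncoding exons, 90.7 in introns, 49.9 in intergenic sequence, 12.7 in 3' UTRs and 4.73 in coding exons, all more than 500 bp from a start. In the replicates' own lists coding exons held 1.37, 1.65 and 1.88 summits per Mb in replicates 1, 2 and 3. Introns held 60.6, 64.6 and 46.1 in the same order. The ratio of intron to coding density, as a geometric mean over replicates, was 34.9, and coding exons were below introns in 3 of 3 replicates (log2 difference −5.12 ± 0.45, SD, n = 3; exact p = 0.25). In the conservative list the same ratio was 19.2.

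For 3' UTRs the replicates gave 8.71, 9.15 and 5.76 summits per Mb, all below the introns of the same replicate. The intron density was 7.33 times theirs (log2 difference −2.87 ± 0.11, SD, n = 3; exact p = 0.25). Noncoding exons, with 73.8, 80.2 and 64.7, lay above introns in 3 of 3 replicates by 0.36 ± 0.11 on the log2 scale over all distances (exact p = 0.25). In the means over replicates this direction turned at matched distances up to 5000 bp, given below. For 5' UTRs the values were 77.7, 85.3 and 41.2, above introns in replicates 1 and 2 and below them in replicate 3 (0.20 ± 0.31, exact p = 0.5), a difference smaller than the spread between replicates.

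**Figure D1:**
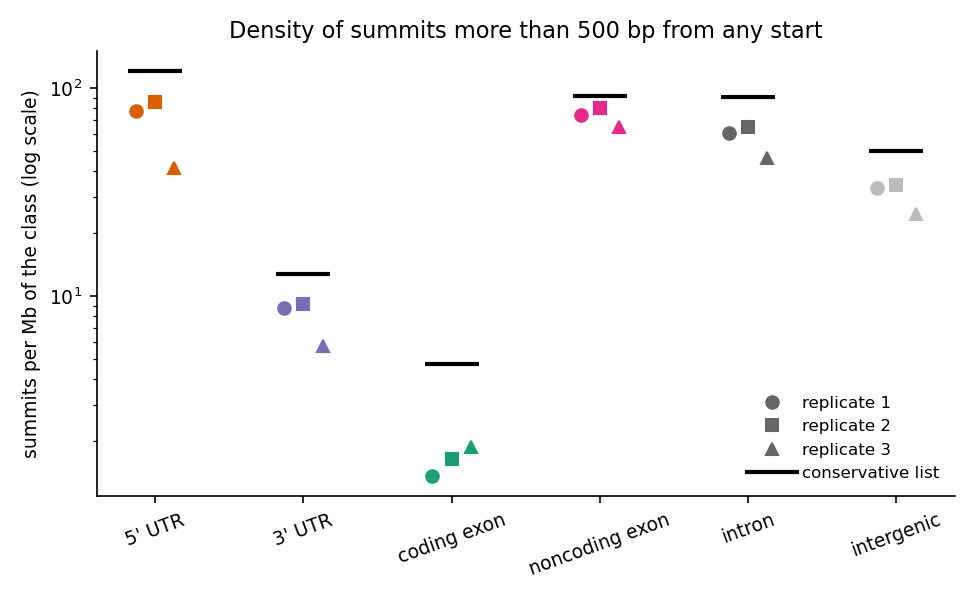
Summits per Mb of each class (log axis), more than 500 bp from any transcript start. Coloured symbols are the 3 replicates' own lists and black bars the conservative list; the 3 coding exon values, 1.37 to 1.88, lie below every value of the other classes.

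The classes lie at different distances from starts, so densities were also read at matched distances, and the places of 5' UTRs and noncoding exons against introns turned with distance. Between 501 and 1000 bp from a start, the conservative list held 200 summits per Mb in 5' UTRs, 162 in introns, 107 in noncoding exons, 89.6 in intergenic sequence, 13.6 in 3' UTRs and 6.67 in coding exons. From 1001 to 2000 bp introns held 129, above 5' UTRs with 87.8 and noncoding exons with 84.4. From 2001 to 5000 bp introns held 102, noncoding exons 78.9 and 5' UTRs 30.7. Beyond 5000 bp noncoding exons held 77.6, introns 64.7 and 5' UTRs 61.4, the last from 10 peaks. In this list, then, 5' UTRs were above introns only in the nearest of the 4 bands, and noncoding exons only in the farthest.

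The replicates' own lists gave noncoding exons 94.7 ± 10.8 (SD, n = 3) against 113 ± 17.0 in introns at 501 to 1000 bp, and 61.7 against 85.9 ± 13.03 at 1001 to 2000 bp. From 2001 to 5000 bp the values were 58.8 ± 22.9 and 63.1 ± 11.1, and beyond 5000 bp they were 43.1 ± 8.62 and 38.5 ± 7.24. In the band from 2001 to 5000 bp the replicates were split. Noncoding exons were above introns in replicate 1 (74.3 against 67.2) and below them in replicates 2 (69.6 against 71.5) and 3 (32.5 against 50.5). For 5' UTRs at 501 to 1000 bp the replicate values were 130, 144 and 76.3, against 118, 127 and 93.9 in introns, and the ranges overlap. In the farther bands 5' UTRs held 40.4 ± 24.5, 13.6 ± 10.7 and 40.9 ± 12.8. The last, unlike in the conservative list, was not below the mean of introns (38.5), as 5' UTRs were above introns in replicates 2 and 3 and below them in replicate 1. Coding exons held 2.86 ± 0.238 at 501 to 1000 bp and 0.311 ± 0.311 beyond 5000 bp. Coding exons were the sparsest class in each of the 4 bands of the conservative list, and these differences by band were not tested.

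The share of exon peaks found in every replicate was below that of all peaks, and it varied widely between the classes. A peak was counted as found in a replicate when it shared at least 1 bp with a thresholded peak of that replicate. All 3 replicates found 113 exon peaks (28.5%, 95% exact interval 24.1 to 33.3), where the background over all peaks was 40.3%. Noncoding exons reached 48 of 101 (47.5%), 3' UTRs 29 of 86 (33.7%), 5' UTRs 27 of 126 (21.4%) and coding exons 9 of 83 (10.8%). No replicate found 114 exon peaks (28.8%), where the background was 19.5%. Coding exons made up 47 of these, or 56.6% of the class, while 14 noncoding peaks were found by none. The deposited q-value was above 0.05 for 194 exon peaks (49.0%), where the background was 33.7%, and for 64 of the 83 coding peaks (77.1%).

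By replicate, 215, 227 and 144 of the 396 peaks (54.3%, 57.3% and 36.4%) were found in replicates 1, 2 and 3, where the shares of all peaks were 64.6%, 67.9% and 49.8%. Replicate 3 was the lowest for both. A peak that missed a replicate's thresholded list was still in its longer ranked list in most cases, since 395, 392 and 378 of the 396 (99.7%, 99.0% and 95.5%) overlapped a ranked peak there, beside 99.3%, 99.3% and 96.0% of all peaks. When the match required summits within 100 bp, 105 exon peaks (26.5%) were found in all 3 replicates against 36.5% of all peaks. With a replicate left out, the share found by the remaining ones can only stay or rise. It was 32.3%, 30.6% and 42.4% without replicates 1, 2 and 3, beside 44.6%, 43.2% and 54.3% of all peaks.

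**Figure D2:**
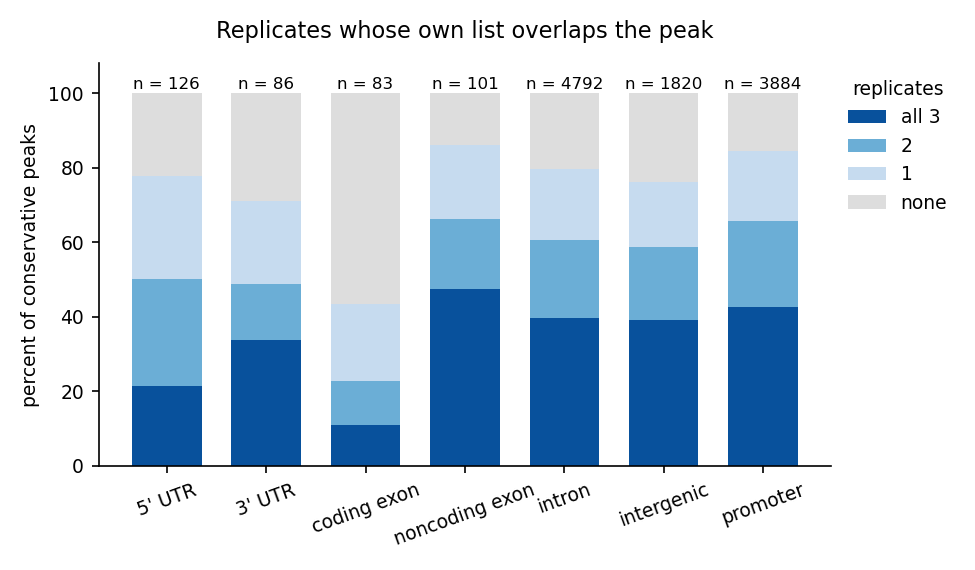
Share of the conservative peaks of each class (y axis, percent) found in all 3, 2, 1 or none of the replicates' own thresholded lists. Coding exons have the smallest share found in all 3 (9 of 83) and the largest found in none (47 of 83), and noncoding exons the largest share found in all 3 (48 of 101).

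In the conservative list, median signal was highest in noncoding exons among the exon classes and lowest in coding exons. The median was 112 for the exon peaks, with 141 in noncoding exons, 116 in 5' UTRs, 111 in 3' UTRs and 83.3 in coding exons, against 138 in introns and 133 in intergenic sequence. Of the exon peaks, 25 were among the strongest 10% of the list, 11 of them in noncoding exons and 0 in coding exons. In the replicates' own lists the median exon signal was lower than that of intron and intergenic peaks together in 3 of 3 replicates, by 0.15 ± 0.03 on the log2 scale (SD, n = 3; exact p = 0.25). For coding exons the difference was −0.51 ± 0.06, for 5' UTRs −0.25 ± 0.08, for 3' UTRs −0.09 ± 0.12 and for noncoding exons 0.07 ± 0.13. The last 2 were no larger than their spread between replicates. In replicate 3 the noncoding median, 61.2, was below that of 3' UTRs (66.0) and of intron and intergenic peaks (64.4), while in replicates 1 and 2 it was above both.

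The strongest peaks of each class were present in every replicate. In the 5' UTRs, the strongest lay in *baz*, which encodes the cell polarity protein Bazooka, at X 17178553 to 17178847, with a conservative signal of 1408. Its own-list signal was 512, 506 and 387 in replicates 1, 2 and 3. The *baz* 5' UTR held 2 further peaks (signals 210 and 107), all 4544 to 6491 bp from the nearest start, in an internal exon that 2 of the 4 transcripts spanning it use. *Nup153*, a nuclear pore gene (X 16599833 to 16600165, signal 1139), had 466, 515 and 175 in the replicates. Its places in their ranked lists were 118, 112 and 560. *Fbl6* (2R 11289134 to 11289348) had a signal of 687, with 272, 223 and 181 in the replicates. *eas*, which encodes ethanolamine kinase (X 16279392 to 16279626), had 650, with 246, 236 and 185. In all 4 genes the value in replicate 3 was the lowest. The median over all exon peaks found in all 3 replicates was also lowest there (92.0, 96.8 and 74.1). The lower values are therefore not particular to these genes.

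Most 5' UTR peaks lay just beyond the distance that separates them from promoter peaks. Their median distance to the nearest start was 724 bp, and 66 of 126 lay within 501 to 750 bp. Eligible 5' UTR bases also lie near starts: 0.446 of 1.04 Mb lay at 501 to 1000 bp, where 89 of the 126 peaks were. First exons held 77 of the 126 peaks, and the share of eligible bases in first exons is not given here. For 55 of the 126 the summit was exonic in only some of the transcripts that span it, compared with 26 of the other 270 exon peaks. Another summit lay within 1000 bp of 80 of the 126 (63.5%), and of 194 of all 396 exon peaks (49.0%), where the background over all peaks was 43.4%.

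In 3' UTRs the strongest peak lay in *APC7*, a gene for a subunit of the anaphase-promoting complex, at X 6599362 to 6599627. Its conservative signal was 1471, and the replicates gave 548, 529 and 417. *Ance-3*, a relative of angiotensin-converting enzyme (2L 13955795 to 13956032), had 910, with 326, 336 and 227. *CG7872* (X 15579690 to 15579913) had 781, with 291, 281 and 234. *Ppa*, an F-box protein gene (2R 22686088 to 22686402), had 750, with 231, 300 and 188, and held a weaker peak 667 bp away with a signal of 255. The 3' UTR peaks were the farthest from starts of the 4 classes, with a median of 1628 bp. Of the 6.77 Mb of eligible 3' UTR, 1.10 Mb lay at 501 to 1000 bp. Of the 86, 79 were exonic in every transcript that spans them.

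Coding exons held no peak as strong as these. *Pde1c*, a cyclic nucleotide phosphodiesterase gene (2L 11816500 to 11816655), was the strongest coding peak found in all 3 replicates, with a conservative signal of 326 and own-list signals of 119, 102 and 104. *CG5895* (3L 16037116 to 16037238) had 300, with 111, 122 and 88.8. The homeobox gene *otp* (2R 20884403 to 20884772) had 297, with 90.0, 91.2 and 137. Its places in the ranked lists were 2489, 2739 and 899. *sgg*, the fly glycogen synthase kinase 3 and a negative regulator of Wnt signalling (X 2659366 to 2659735), had 202, with 64.6, 64.0 and 70.0. In *sgg* the summit was exonic in 3 of the 17 transcripts that span it. The median distance from a coding summit to the nearest exon edge was 132 bp, and 31 of 83 (37.3%) lay within 100 bp of an edge, where 30.6% of the eligible coding bases do.

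The strongest exon peak of the list, and the next, lay in noncoding exons. The first was lncRNA:CR46035 (3R 17704251 to 17704585), a gene of 1 exon inside *osa*, which encodes a subunit of a Brahma chromatin remodelling complex. Its conservative signal was 2248, and the replicates gave 789, 890 and 639. lncRNA:CR44619 (X 12754342 to 12754670) followed with 1524, and 529, 556 and 443 in the replicates. lncRNA:CR44468 (2R 18806728 to 18806965) had 815, with 290, 264 and 242. The strongest peak of lncRNA:CR43334, described below, had 798. lncRNA:CR44363 (3L 11405934 to 11406172) came after it with 757, and 285, 281 and 203 in the replicates. Of the 101 noncoding peaks, 28 also lay inside another gene, as in *osa*, so the base belongs to more than a single annotated gene. Across all 396 this held for 59.

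**Figure D3:**
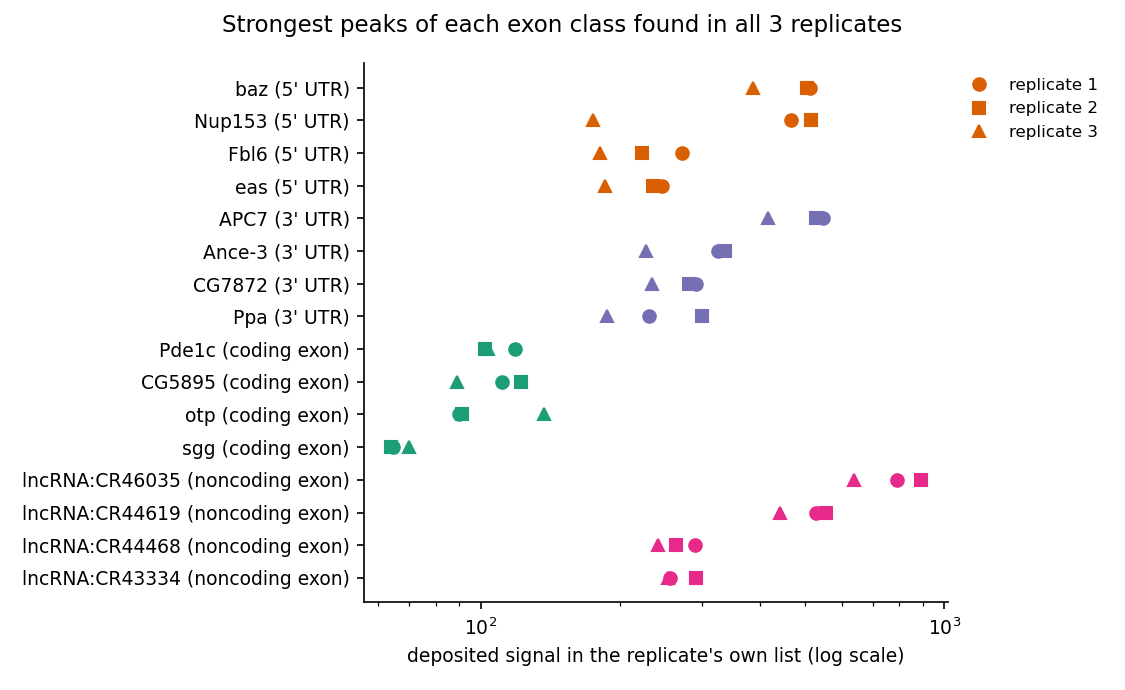
Own-list signal (x axis, log scale) of the 4 strongest peaks per class that were found in all 3 replicates, with a symbol per replicate. Replicate 3 is the lowest in each 5' UTR and 3' UTR row, and the coding rows lie between 64.0 and 137. Its median over all exon peaks found in all 3 replicates is also the lowest.

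Most host genes held a single peak, and 5 of the 8 genes with 3 or more were lncRNA genes. The 396 summits fell in 338 genes, of which 293 held 1 peak, 37 held 2 and 8 held 3 or more. lncRNA:CR43334, the annotated RNA that spans the microRNA gene *bantam*, held 6 over 7009 bp (3L 633746 to 640755, summits), with conservative signals of 83.4 to 798. Its strongest peak had own-list signals of 256, 292 and 254, and 4 of the 6 were found in all 3 replicates. lncRNA:CR43650 held 4 peaks (2R, signals 87.1 to 390), of which 3 were found in all 3 replicates. lncRNA:CR46004 held 4 (3L, 7.37 to 236), also with 3 found in all 3 replicates. Its weakest peak, counted among these, shared bases with a peak of signal 230 whose summit lay 228 bp away. The match of the weaker peak cannot be told apart from a match to that neighbour. In lncRNA:CR46260 (2L, 58.0 to 173) 1 of 3 was found in all 3 replicates, and in lncRNA:CR46006 (3L, 8.58 to 141) 0 of 3. Of the protein-coding genes, *baz* held 3, described above, and *Dyro* (3L, 5.92 to 101) and *CG46385* (2R, 30.9 to 86.8) held 3 each that no replicate found. In lncRNA:CR46260, lncRNA:CR46006, *Dyro* and *CG46385* the count also includes a pair of peaks that shared bases, with summits 201 to 261 bp apart.

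Along each replicate's ranked list, the share of exon peaks rose as signal fell, and most of the rise was in coding exons. Among ranks 1 to 1000 the exon classes made up 2.70% ± 0.17 (SD, n = 3), and among ranks 32001 to 64000 they made up 24.9% ± 1.85. Coding exons went from 0.033% ± 0.058 to 19.9% ± 1.74, which exceeds the 13.1% of the chromosomes that they cover under the same rule. The 3' UTRs went from 0.733% ± 0.115 to 3.07% ± 0.152. Noncoding exons stayed between 0.925% and 1.23% in every bin, and 5' UTRs between 0.600% and 1.34%. In ranks 8001 to 16000 the coding share was 6.14%, 4.12% and 12.96% in replicates 1, 2 and 3, highest in the replicate with the smallest thresholded list.

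**Figure D4:**
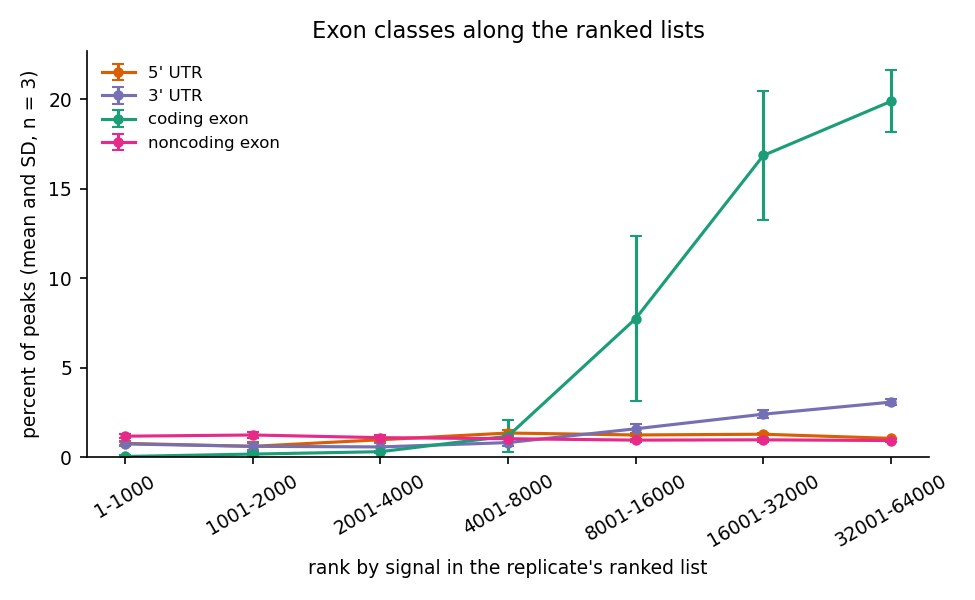
Share of each exon class (y axis, percent, mean and SD of 3 replicates) in bins of rank by signal in the ranked lists. The coding share rises from 0.033% to 19.9%, while noncoding exons stay between 0.925% and 1.23%.

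Base composition at the summits separated the classes. The A/T share of the 101 bp around the summit was compared with that of equal windows centred 300 bp to each side, in the replicates' own lists. Noncoding exon summits were richer in A/T than their flanks by 8.97, 7.68 and 9.10 percentage points in replicates 1, 2 and 3 (8.58 ± 0.784, SD, n = 3; exact p = 0.25). Intron summits were richer by 7.76 ± 0.423. Coding exon summits were poorer by 15.4, 13.3 and 14.4 points (−14.4 ± 1.05; exact p = 0.25). The 5' UTR summits were poorer in 3 of 3 replicates (−3.29 ± 1.48; exact p = 0.25). The 3' UTR difference (0.972 ± 1.93; exact p = 0.75) and that of all exon peaks together (0.463 ± 0.984; exact p = 0.75) were smaller than their spread. In the conservative list the differences were 5.57 for noncoding exons, −12.0 for coding exons, −4.44 for 5' UTRs, 1.70 for 3' UTRs and −2.14 for all exon peaks.

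The composition of the exons was measured beside these differences. Windows tiled over all eligible coding bases were 47.4% A/T and differed from their own flanks by −4.10 points, while the coding summits were 43.3% A/T. Where windows and flanks both lay wholly in exon, the coding difference was −5.27 ± 6.86 (SD over 20 peaks), against −14.2 ± 12.5 over the 63 peaks with some base outside exons. For 5' UTRs the same values were 0.426 ± 14.3 (43 peaks) and −6.97 ± 10.1 (83 peaks). For noncoding exons they were 5.56 ± 16.5 (62 peaks) and 5.59 ± 17.3 (39 peaks), so the noncoding difference was as large within exons. Tiled noncoding exon windows were 58.0% A/T and differed from their flanks by −0.540 points, and the noncoding summits were 60.9% A/T. Tiled 3' UTR windows were 62.4% A/T and 2.36 points above their flanks, and the 3' UTR summits were 59.6%. Tiled 5' UTR windows were 54.7% A/T with a difference of −1.77, and the 5' UTR summits were 53.9%. Over all classes, summits were 49.7% A/T for the 114 peaks found in no replicate and 59.7% for the 113 found in all 3, but coding exons made up 47 of the former and 9 of the latter. Within noncoding exons the share rose with each further replicate (52.5%, 58.3%, 62.7% and 63.7% for 0, 1, 2 and 3). Within 5' UTRs (54.3%, 50.9%, 54.3% and 56.9%), 3' UTRs (55.1%, 62.5%, 61.9% and 60.7%) and coding exons (43.3%, 43.3%, 42.7% and 43.9%) there was no steady rise.

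**Figure D5:**
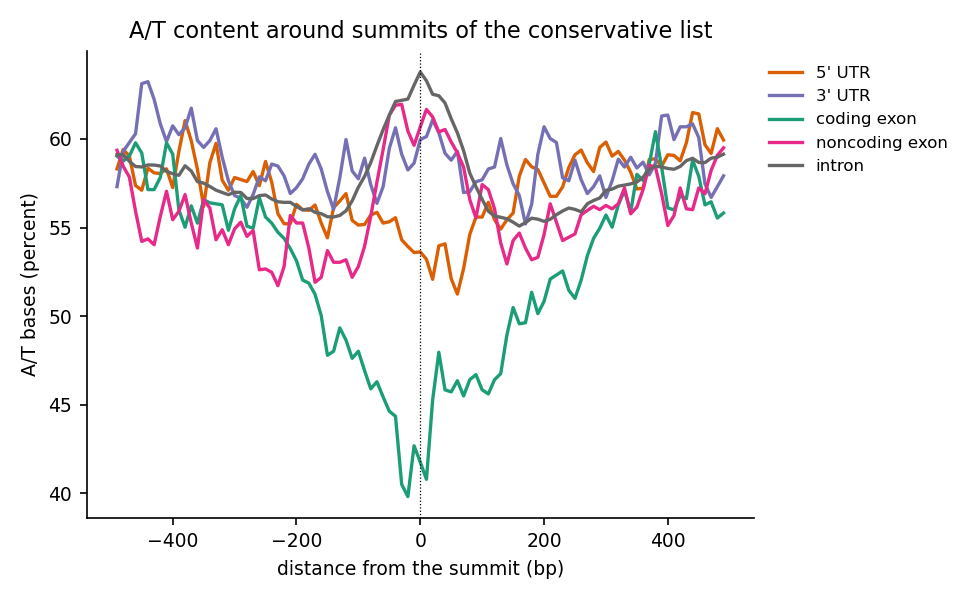
A/T content (y axis, percent) by distance from the summit (x axis, bp) for the 4 exon classes and introns in the conservative list, each line the mean over the peaks of a class. Coding exons dip at the summit, where the 101 bp windows average 43.3%, and noncoding exons rise there (60.9%) as introns do.

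Short words at the summits also differed between the classes. GAGAGA or its reverse TCTCTC lay within 50 bp of 20 of the 126 summits in 5' UTRs (15.9%, 95% exact interval 9.97 to 23.4), against 9.52% of their flanks, 5.27% of tiled 5' UTR windows and 7.25% of all peaks. The replicates' own lists gave 19.75%, 17.98% and 13.95%, each above the tiled value. Noncoding exons held it at 15 of 101 summits (14.9%), against 3.70% of tiled windows, and coding exons at 2 of 83. AAAAAA or TTTTTT was at 30 of 86 summits in 3' UTRs (34.9%), against 20.5% of tiled 3' UTR windows and 29.1% of all peaks, and the replicates gave 32.2%, 33.9% and 28.2%. The same run was at 27 of 101 noncoding summits (26.7%), against 17.0% of tiled noncoding windows, and at 37 of 126 in 5' UTRs (29.4%). The noncoding share was below that of all peaks. CACACA or TGTGTG was at 31 of 126 in 5' UTRs (24.6%), against 18.7% of their flanks and 10.3% of tiled windows. The replicates' own lists gave 18.5%, 16.9% and 16.3%, above the tiled value but not above that flank value.

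Repeats rich in G and C were more frequent at coding summits than in tiled coding windows. GCAGCA or TGCTGC, a word added after the values were seen, was at 29 of 83 coding summits (34.9%, 95% exact interval 24.8 to 46.2). It was in 15.7% of their flanks, 16.02% of tiled coding windows and 8.72% of all peaks, and the replicates' own lists gave 33.3%, 34.5% and 24.2%. CCGCCG or CGGCGG, also added then, was at 23 of 83 (27.7%) against 9.95% of tiled windows, and the replicates gave 20.8%, 34.5% and 15.2%. The TATA box word TATAAA or TTTATA was at 1 coding summit. It was at 16 of 101 noncoding summits (15.8%), against 12.5% of tiled noncoding windows and 15.7% of all peaks. The promoter element DRE, as TATCGATA, was at 0 of 396 summits, which allows a share of up to 0.927% (exact interval), and at 0.679% of all peaks. GATAA or TTATC was at 66 of 396 (16.7%), against 15.1% of tiled windows and 18.7% of all peaks. These words overlap in part with base composition, whose part in the counts was not tested.

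The genes with exon peaks often also had a peak at a start of their own. Of the 338 host genes, 259 were protein-coding, which is 1.86% of the 13945 protein-coding genes. A summit lay within 500 bp of an own start in 159 of the 259 (61.4%, 95% exact interval 55.2 to 67.4), where the background over protein-coding genes was 24.2%. By class the share was 71.7% of 113 genes for 5' UTRs, 59.7% of 77 for coding exons, 49.4% of 79 for 3' UTRs and 35.4% of 79 for noncoding exons, where the background over noncoding RNA genes was 13.7%. Gene length and number of starts were not matched here.

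Among gene lists, the ecdysone response held exon peaks in 5 of 25 genes and the developmental signalling pathways in 6 of 45, beside the 1.86% of all protein-coding genes. These lists were chosen with earlier results of these data known, and gene length was not matched. Whether their shares differ from that of all genes was not tested. In the ecdysone list, *crol*, a zinc finger gene, had the strongest peak (2L 11807918 to 11808287, 5' UTR), with a conservative signal of 303 and ranked signals of 120, 94.4 and 91.4 in replicates 1, 2 and 3. *sbb* (2R 18355994 to 18356085, 5' UTR) had 206, with 77.2, 67.1 and 33.9. The nuclear receptor gene *Hr4* (X 2005829 to 2006198, 3' UTR) had 171, with 40.8, 69.9 and 71.5. The peak of *crol* was found in all 3 replicates and the others in 2. The remaining genes of this list were *ftz-f1*, a nuclear receptor gene of the prepupa with 2 peaks in its 5' UTR (162 and 101), and *E23*, an ecdysone-inducible transporter with a coding peak (74.4) found by no replicate; both were named after their values were seen.

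In the signalling list, the ligand gene *Wnt6* had a 5' UTR peak of 227 (2L 7334220 to 7334589), with ranked signals of 70.4, 99.97 and 42.1, found in all 3 replicates. *sgg* was described above. *tkv*, a receptor for the ligand Dpp, had a 5' UTR peak of 121 (2L 5236512 to 5236881), with 35.1, 51.2 and 28.2, found in 1 replicate. The other members, named after their values were seen, were weaker: *sty*, an inhibitor of receptor tyrosine kinase signalling (5' UTR, 114, found in 1), *nkd*, an inhibitor of Wnt signalling (coding exon, 87.6, found in 0), and *Pka-C1*, a protein kinase A subunit (5' UTR, 4.30, found in 0). The homeobox and segmentation list had 1 of 45 (2.22%, beside the 1.86% of all protein-coding genes). This was *sd*, the fly TEAD factor (X 15804748 to 15805117, 5' UTR, signal 120, found in 0 replicates). The homeobox gene *otp*, whose coding peak was described above, is not on this list. The muscle list had 1 of 26, *Mef2*, a transcription factor of muscle, with 2 peaks in 5' UTRs (2R, 158 and 117), found in 2 and 1 replicates. The heat shock list had 1 of 21, *Hsp27*, a small heat shock protein gene (3L 9384696 to 9385065, 3' UTR, 91.2, found in 0). The adhesion and matrix list had 2 of 31, *chic*, which encodes profilin (2L 5972052 to 5972421, 3' UTR, 112, found in 0), and *Mmp2*, a matrix metalloproteinase (2R 9683122 to 9683491, 5' UTR, 92.7, found in 2). The lists of Polycomb and Trithorax genes (30), insulator proteins (12), RNA-binding regulators (30), cytoplasmic ribosomal proteins (60) and neuronal genes (26) held 0 each. These lists are short, and only 1.86% of all protein-coding genes held an exon peak. They do not hold every gene of their kind, so 0 does not show that such genes lack exon peaks.

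CG6163 itself, the gene that carries the fusion, held 2 coding exon peaks. The stronger (3L 11363428 to 11363797) had a conservative signal of 164, with ranked signals of 41.6, 64.0 and 47.1, and was found in all 3 replicates. The weaker (3L 11362591 to 11362960) had 110, with 47.8, 41.9 and 37.9, and was found in 2. Within 100 kb to either side of the gene lay 88 conservative peaks, 7 of them exon peaks and 4 of these coding. Over all the chromosomes the list held 81.4 peaks per Mb, and 3.64% of its peaks were exon peaks and 0.762% coding. Without this stretch 389 exon peaks remained, of which 28.3% were found in all 3 replicates.

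By chromosome, X held 101 of the exon peaks (25.5%), with 19.1% of the eligible exon bases and 19.3% of all peaks. Chromosome 4 held 0 exon peaks with 1.45% of the bases, but it also held only 3 of all peaks in the list (0.0275%). On X lay 30 of the 86 peaks in 3' UTRs (34.9%, with 22.8% of the bases), 40 of 126 in 5' UTRs (31.7%, with 21.9%) and 14 of 83 in coding exons (16.9%, with 17.8%). Noncoding exons had 17 of 101 there (16.8%, with 15.1%). X also held more than its share of bases for intron peaks (23.1%, with 19.3%) and promoter peaks (18.7%, with 16.4%), but less for intergenic peaks (9.62%, with 14.6%). The labels do not give the sex of the animals.

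At the distance that defines the set, the nearest members lay 501 bp from a start, in *CG46319* (2R 10124609 to 10124978, 5' UTR, signal 90.4) and in lncRNA:CR43334 (3L 639028 to 639397, 83.4). The nearest exon peaks left out lay at 498 bp in *Syp* (3R 20780251 to 20780393, 5' UTR, 332) and at 497 bp in *ebd1* (3L 684867 to 685236, coding, 101). From 401 to 500 bp there were 81 exon summits with a median signal of 138, and from 501 to 600 bp there were 67 with a median of 120. At the weak end, 27 exon peaks (6.82%) had a signal below 20, where the background over all peaks was 3.73%. Of these, 11 lay in coding exons, and all 27 shared bases with another conservative peak. The weakest was in *IP3K2* (X 13325604 to 13325973, 5' UTR), with a signal of 2.77, found in replicate 3. Some weak peaks overlapped much stronger conservative peaks. In *dachs*, an atypical myosin gene of growth control, a peak with a signal of 15.96 overlapped a peak of 496. The replicate peaks that it matched had 218, 180 and 124 in their own lists. In all, 80 of the 396 (20.2%) shared a base with another conservative peak, a stronger one in 47 cases, and there a match by shared bases cannot be told apart from a match to the neighbour.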

How the data were processed

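The files are peak lists on dm6. Per the labels and file headers, each replicate has its own lists, and the series lists draw on all 3 libraries. The aligner is not given in the sources used, nor is the peak caller. The signal per peak was deposited by the authors and was read within a list. The −log10 q-value and the score deposited by the authors served as filters or checks. Thresholded lists began at a score of 830. Genes came from the Ensembl dm6 annotation without transposable elements, and sequence from RefSeq for the same assembly; 0 peak ends lay beyond a chromosome end. Each summit was classed in the order promoter (500 bp or less), 5' UTR, 3' UTR, coding exon, noncoding exon, intron, intergenic. Words were searched on both strands within 50 bp of the summit, and tiled windows of 101 bp covered eligible exon bases.

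The exon peaks and the gene lists were chosen with earlier results of these data known. Densities by distance, the background of noncoding RNA genes and 2 of the words were added later. Named peaks were the 10 strongest, the 4 strongest per class found in all 3 replicates, genes with 3 or more, up to 3 per list, those next to the 500 bp limit and the weakest; *dachs* and the other examples were named after values were seen. Unmatched list symbols were otd, Eip55E, Eip71CD, ImpL3, Dl, dad, yan, Psq, Z4, nos, Hsp67Bb and Cg25C. Classes, overlaps and distances were tested on simulated data. Alternatives changed the distance, summit, q limit, series list, overlap rule, sequence windows and replicates. Software was SciPy 1.17.1, pandas 2.3.3, matplotlib 3.10.9 and NumPy 2.4.6 under Python 3.11.15.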

Additional observations from a re-analysis of the deposited data

Results flagged for a closer look

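The A/T difference between summits and flanks went opposite ways in exon classes in all 3 replicates' own lists. Coding exons minus noncoding exons came to −22.97 percentage points (SD 1.75, n = 3) and 5' UTRs minus noncoding exons to −11.87 (SD 1.76). Each difference was negative in 3 of 3 replicates, with an exact sign-flip p of 0.25, the smallest that 3 replicates allow. The classes differ in the composition of their exons and in how many flanks leave the exon, and the values for both stand in the report; their part in these differences was not tested beyond that split.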

How the results depend on the processing

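The 396 exon peaks became 685 at more than 200 bp from a start, 215 at more than 1000 bp and 202 at a q-value at or below 0.05. The other series lists gave 294 to 568, and peak middles in place of summits gave 399. The share found in all 3 replicates, 28.5%, was 24.0% with 50% of the peak covered. Leaving out each replicate in turn, 30.6% to 42.4% (121 to 168 peaks) were found in the remaining ones. The signal difference of −0.15 (log2) was −0.29 in the conservative list and ran from −0.17 to −0.14 with a replicate left out. The A/T difference of all exon peaks, 0.463 points, turned to −0.297 with windows of 100 bp to each side, −0.164 with flanks 600 bp away, −2.14 in the conservative list and −1.92 there without peaks within 100 kb of CG6163. With a replicate left out it ran from −0.0776 to 0.885. That of 3' UTRs, 0.972, turned to −0.669 with the wider windows, rose to 2.34 ± 2.14 with flanks 600 bp away (positive in 3 of 3 replicates, exact p = 0.25), and ran from −0.0066 to 1.93 with a replicate left out. Coding exons went from −14.4 to −12.0 in the conservative list and −11.5 there without that stretch, and noncoding exons from 8.58 to 5.57 and 5.82. For coding and noncoding exons and 5' UTRs, the windows, flanks, lists and left-out replicates tried here kept the direction, but the 43 peaks in 5' UTRs with windows and flanks wholly in exon gave 0.426. The cause of these shifts was not tested. Leaving out peaks near CG6163 was chosen after seeing the data. With 1 group there are no groups to pair, and classes were compared within each replicate. Unknown read depth, 3 replicates and 24 to 33 coding peaks per replicate list limit what can be told apart.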
